A study of Mus musculus with 9 samples.

Results

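Inhibitors of bone morphogenetic protein (BMP) signalling were described across mouse cartilage and bone: 9 genes, chosen by symbol, out of 43472 in the deposited table of raw read counts. They are the secreted antagonists Nog, Chrd, Chrdl1, Grem1, Fst and Fstl1, the membrane pseudoreceptor Bambi, and the inhibitory Smads Smad6 and Smad7. All 9 had a row in the table and all 9 passed the filter on low counts, which kept 14257 genes. RNA sequencing had been run on 3 libraries each of bone (Bone, labelled as osteoblasts), mature cartilage (MatC, labelled as mature chondrocytes) and immature cartilage (ImC, labelled as immature chondrocytes). All came from the C57BL/6J strain. The labels give no treatment, allele, age or anatomical site, and they do not tell if the 3 libraries of a tissue represent different animals. The spread behind each p-value is therefore that of these libraries and may be technical. Every comparison shares its libraries with the other two. The RNA had been amplified for 1 round before library preparation.

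BMPs drive the condensation of cartilage, the maturation of chondrocytes and the formation of bone by osteoblasts. They bind paired receptor kinases that phosphorylate Smad1, Smad5 and Smad9, which join Smad4 and act on target genes. The pathway is held back at 3 levels. Secreted antagonists trap the ligands outside the cell, Bambi occupies receptor complexes without a kinase domain of its own, and Smad6 and Smad7 block signalling inside the cell. Several of these inhibitors are themselves induced by BMP signalling, so that they form feedback loops.

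Promoter sequences were shown for the called members that the RefSeq promoter table covers, Smad6, which was higher in bone, and Fstl1, which was lower in bone. The table held 4 of the 9 members (Smad6, Fstl1, Chrd and Grem1). Each window holds 300 bases around the annotated start (GRCm38.p6) and is printed 5′ to 3′ on the gene's own strand, in lower case. The letters searched on both strands were GGCGCC and the longer GCCGCGCC, both known from BMP-responsive genes, the short Smad box CAGAC, the palindromic Smad-binding element GTCTAGAC and the TATA box TATAAA; capitals mark any match.
Smad6, chr9:64022010-64022309, minus strand: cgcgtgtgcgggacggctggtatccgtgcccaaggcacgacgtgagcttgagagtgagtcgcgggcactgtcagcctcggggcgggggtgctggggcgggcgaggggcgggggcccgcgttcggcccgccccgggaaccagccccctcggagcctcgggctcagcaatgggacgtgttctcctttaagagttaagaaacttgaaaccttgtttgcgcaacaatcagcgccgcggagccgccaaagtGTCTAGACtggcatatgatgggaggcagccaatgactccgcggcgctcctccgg
Fstl1, chr16:37776805-37777104, plus strand: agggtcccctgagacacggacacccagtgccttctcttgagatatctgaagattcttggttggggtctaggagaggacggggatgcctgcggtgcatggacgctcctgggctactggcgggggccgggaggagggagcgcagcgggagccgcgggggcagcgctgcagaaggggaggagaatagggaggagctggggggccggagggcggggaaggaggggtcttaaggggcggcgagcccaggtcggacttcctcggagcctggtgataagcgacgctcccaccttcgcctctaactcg

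The Smad6 window held 1 copy of GTCTAGAC. It spanned the annotated start, with 4 bases before it and 4 bases after it, and it overlapped no other motif searched. Of 32851 windows of the same length in the table, 70 (0.213%) held these letters. The Fstl1 window held none of the 5 motifs. Of the windows not printed, that of Chrd held 1 copy of GGCGCC and 1 of the short Smad box, and that of Grem1 held 1 and 2 copies of them. All windows held the first in 11.9% and the short Smad box in 49.6% of cases. The longer motif and the TATA box, found in 4.15% and 13.6% of all windows, had 0 matches in the 4 members' windows. G and C made up 66.3% of the bases for Smad6, 66.7% for Fstl1, 78.3% for Chrd and 70.7% for Grem1, against a median of 52.7% over all windows. A match describes letters and not a bound site.

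Total counts ran from 7913684 to 23159547 per library, and levels are given in CPM, reads per 1000000 after scaling of the library totals by TMM, the trimmed mean of M values. Mitochondrially encoded genes took 7.24% to 8.91% of the counts in Bone, 33.7% to 82.3% in MatC and 32.0% to 55.0% in ImC. MatC replicate 3, at 82.3%, stood apart: 3 reads there equalled 0.849 CPM, against at most 0.257 CPM in each other library. The tissue labels were checked against marker lists. Summed osteoblast markers ran from 80203 to 95560 CPM in Bone, 1122 to 26434 CPM in MatC and 524 to 583 CPM in ImC, and summed markers of immature chondrocytes ran from 841 to 1399 CPM in Bone, 9688 to 23843 CPM in MatC and 14517 to 19853 CPM in ImC. Col10a1, the collagen that defines hypertrophic chondrocytes, stood at 0.845 to 2.48 CPM in Bone, 817 to 4760.4 CPM in MatC and 0.427 to 0.75 CPM in ImC. The 10 hypertrophic markers, Col10a1 among them, summed to 1844 to 2252 CPM in Bone, 3668 to 13554 CPM in MatC and 185 to 729 CPM in ImC. In Bone against ImC, 5 of these 10 were called higher and 3 lower. Markers of other cell types were also present: erythroid markers summed to 4856 to 6846 CPM in Bone, 667 to 2654 CPM in MatC and 8.25 to 1063 CPM in ImC. In bulk samples such as these, fewer cells of a type and less RNA per cell cannot be told apart.

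The inside-acting inhibitor Smad6 and the pseudoreceptor Bambi were higher in bone than in immature cartilage, while the secreted antagonists Nog and Fstl1 were lower. Smad6 was also higher in bone than in mature cartilage, and Bambi was higher in mature than in immature cartilage. Of these calls, only those of Smad6 and Bambi in bone against immature cartilage held in all 16 alternative settings described below. Genes were called at an adjusted p under 0.05 in edgeR's quasi-likelihood test, fitted to all genes and all 9 libraries. By that test Chrd, Chrdl1, Grem1, Fst and Smad7 were called in no comparison. In Bone against ImC, 2 of the 9 members were called higher and 2 lower, where 31.1% of all genes tested were called, 14.3% higher and 16.8% lower. In Bone against MatC, where 6.05% of all genes were called, 1.36% higher and 4.69% lower, 1 member was called higher and 0 lower in edgeR's test. At an unadjusted p under 0.05, 3 members were lower there (Nog, Chrdl1 and Fst), and DESeq2 called 1 lower. In MatC against ImC, where 7.71% of all genes were called, 5.41% higher and 2.29% lower, 1 member was called higher and 0 lower by edgeR, with 0 lower at an unadjusted p under 0.05 and 0 by DESeq2. The tissues did not overlap for 5 of 9 members in Bone against ImC, 2 higher and 3 lower, where 59% of all genes did not overlap, 30.1% higher and 28.8% lower. They did not overlap for 4 of 9 in Bone against MatC and 1 of 9 in MatC against ImC, beside 35.6% and 23.9% of all genes. With 9 genes, these counts do not set the inhibitors apart from the rest. The median log2 fold change of the 9 was -0.96, -1.26 and 0.17 in Bone against ImC, Bone against MatC and MatC against ImC, and over all genes tested it was -0.02, -0.03 and 0.03.

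**Figure D1:**
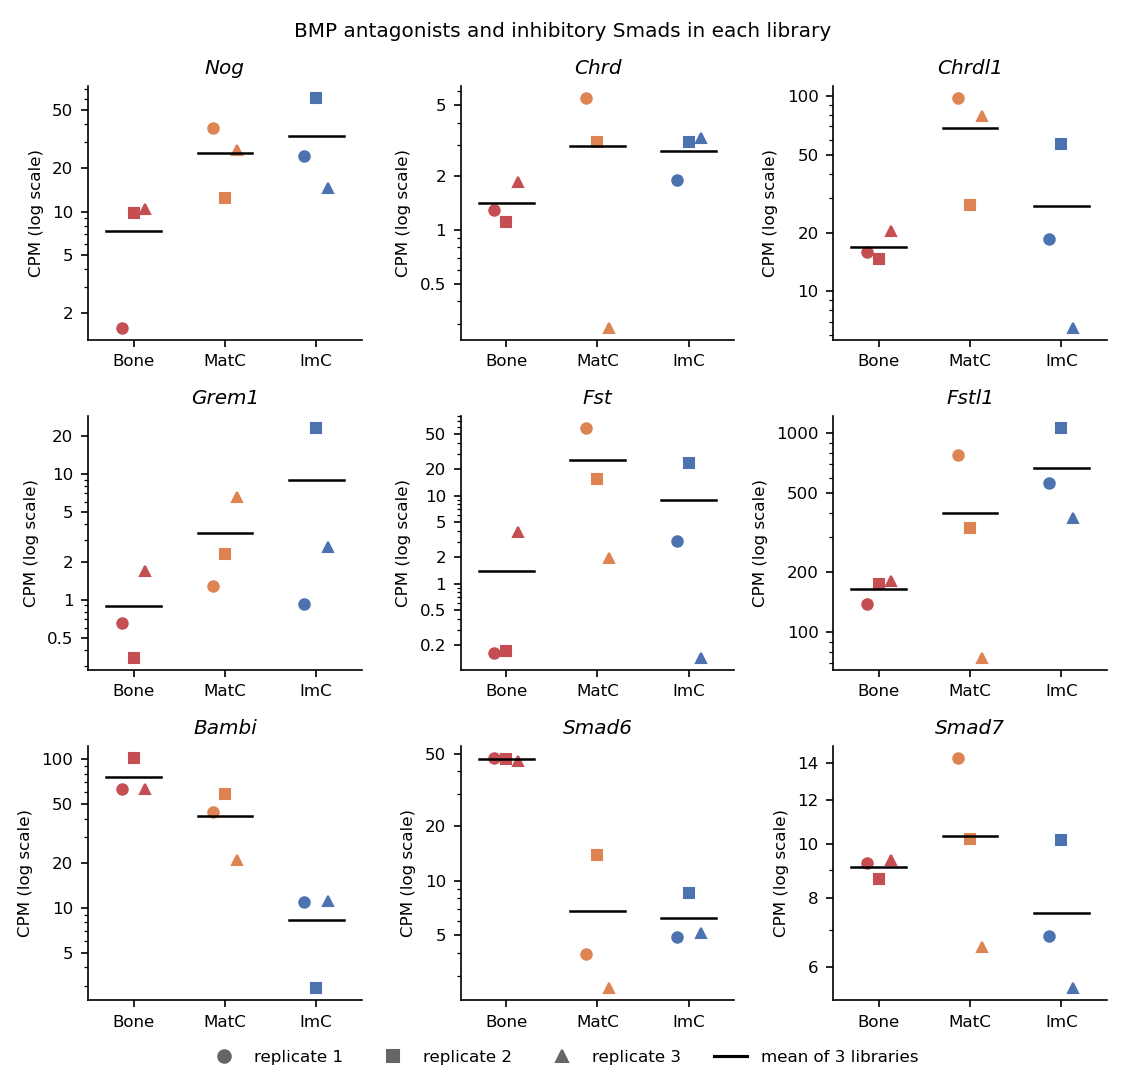
Level of each inhibitor gene in CPM (log scale) in the 3 libraries of Bone, MatC and ImC; symbols mark the replicate number and black lines the mean of 3 libraries. Smad6 sits between 45.6 and 47.4 CPM in Bone, above every cartilage library, and Bambi stands in the order Bone, MatC, ImC with no overlap, while Nog, Fst, Grem1 and Fstl1 spread widely between libraries of cartilage.

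Smad6, the inhibitory Smad that preferentially blocks BMP receptors and competes for Smad1, lies on chromosome 9 (63953076 to 64022059, minus strand, GRCm38). It stood at 47.4, 46.6 and 45.6 CPM in Bone replicates 1, 2 and 3, at 3.94, 13.8 and 2.55 CPM in MatC and at 4.92, 8.54 and 5.13 CPM in ImC. Every Bone library was above every cartilage library, and the cartilage groups overlapped. The log2 fold change was 2.90 ± 0.55 in Bone against ImC (SE, edgeR adjusted p = 0.00453) and 2.73 ± 0.55 in Bone against MatC (adjusted p = 0.0200). In MatC against ImC it was 0.17 ± 0.53 (adjusted p = 0.877; 95% interval -0.998 to 1.34). MatC replicate 2 set much of the MatC mean: without it the Bone to MatC value was 3.803. Without MatC replicate 3 it was 2.42 and still called (adjusted p = 0.0447). The call in Bone against MatC ended without any 1 Bone library, where the value was 2.74 to 2.77. Calls over all genes then numbered 167 to 238, against 863. Over the 16 alternatives, the adjusted p of edgeR or DESeq2 was 0.0845 at most and 1.89e-05 at least. The call in Bone against ImC held in each of them.

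The spread of Smad6 between libraries was 0.883 CPM in Bone (SD, n = 3) around a mean of 46.5 CPM, against 6.14 CPM around 6.77 in MatC and 2.03 CPM around 6.19 in ImC. Within a library, its level per kilobase of exon could be set beside that of Smad7, so that the scaling between libraries dropped out. Smad6 was 7.22, 7.60 and 6.88 times Smad7 in Bone replicates 1, 2 and 3, 0.388, 1.91 and 0.552 times in MatC, and 1.015, 1.18 and 1.32 times in ImC. All Bone ratios were above all cartilage ratios, and the MatC libraries lay on both sides of the ImC range.

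Smad7, the inhibitory Smad that acts on TGF-beta and activin as well as BMP signalling, lies on chromosome 18 (75367529 to 75395935, plus strand). It stood at 9.26, 8.65 and 9.35 CPM in Bone, at 14.3, 10.2 and 6.51 CPM in MatC and at 6.83, 10.2 and 5.48 CPM in ImC, and all 3 groups overlapped. The log2 fold change was 0.27 in Bone against ImC (95% interval -0.57 to 1.12), -0.20 in Bone against MatC (-1.05 to 0.64) and 0.48 in MatC against ImC (-0.37 to 1.33), with adjusted p = 0.612, 0.800 and 0.482 in edgeR's test. These values do not show equal levels, but each interval ends below the 2.73 and 2.90 fitted for Smad6 in the comparisons with Bone. The direction of Smad7 in Bone against MatC turned with library size only and without MatC replicate 1.

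Bambi, a transmembrane protein related to type I receptors that lacks the kinase domain and is itself a target of BMP signalling, lies on chromosome 18 (3507923 to 3516404, plus strand). Bambi levels were 63.7, 102.2 and 63.5 CPM in Bone, 44.1, 58.9 and 20.9 CPM in MatC and 11.0, 2.88 and 11.2 CPM in ImC. The 3 tissues did not overlap, and their order was Bone, MatC, ImC. The log2 fold change was 3.20 ± 0.56 in Bone against ImC (SE, edgeR adjusted p = 0.00294) and 2.32 ± 0.54 in MatC against ImC (adjusted p = 0.0310). Between Bone and MatC it was 0.88 ± 0.51 and not called (adjusted p = 0.341), although the groups did not overlap, as for 35.6% of all genes in that comparison. The call in Bone against ImC held in each of the 16 alternatives. That in MatC against ImC ended in 9 of them, without any 1 Bone library, MatC replicate 1 or 2, or ImC replicate 1, with library size only, with only these 2 groups in the fit and with the replicate block; adjusted p ran from 0.000547 to 0.135. Without MatC replicate 3 it was 2.65 and still called (adjusted p = 0.0183). The annotated pseudogene Bambi-ps1 held 17 reads over all 9 libraries.

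Markers of several other cell types were called higher in Bone against ImC, as Smad6 and Bambi were. In MatC against ImC such markers were also called higher, as Bambi was, but Smad6 was not (log2 fold change 0.17). Of 10 endothelial markers, 7 were called higher and 0 lower in Bone against ImC, 6 and 0 in MatC against ImC, and 0 and 0 in Bone against MatC by edgeR, where 0 had an unadjusted p under 0.05 and DESeq2 called 0. Their summed level ran from 56.1 to 164 CPM in Bone, from 19.8 to 264 CPM in MatC and from 5.31 to 21.2 CPM in ImC, where Sox17 had 0 reads in all 3 libraries and Tek, Emcn, Kdr, Esam or Cdh5 had 0 in some; in MatC replicate 3, Tie1, Ramp2 and Sox17 had 0. The highest endothelial sum, 264 CPM, was in MatC replicate 2, which had 13.8 CPM of Smad6, below each Bone library. In Bone the endothelial sum was 56.1, 155 and 164 CPM in replicates 1, 2 and 3, while Smad6 was 47.4, 46.6 and 45.6 CPM. Osteoblast markers were also higher in Bone than in ImC, 11 of 11, and in MatC than in ImC, 7 of 11. In Bone against MatC, where Smad6 was called, edgeR called 0 of 11, with 8 higher at an unadjusted p under 0.05 and 5 by DESeq2. Of the 11, 9 were higher there without overlap, beside 17.9% of all genes. MatC replicate 2, with the highest Smad6 and Bambi of its tissue, had the highest osteoblast sum there, 26434 CPM. Its sums of endothelial, macrophage and leukocyte, osteoclast, erythroid and skeletal muscle markers were also highest there, 264, 114, 624, 2654 and 264 CPM. The sums of immature chondrocyte, hypertrophic, and perichondrium, tendon and fibroblast markers were highest in other MatC libraries. Of 9 macrophage and leukocyte markers, 8 were called higher in Bone against ImC and 4 in MatC against ImC; in Bone against MatC edgeR called 0, with 1 higher at an unadjusted p under 0.05 and 1 by DESeq2. They summed to 57.4 to 142 CPM in Bone, 24.3 to 114 CPM in MatC and 11.8 to 31.5 CPM in ImC. Osteoclast markers summed to 515 to 1116 CPM in Bone, 47.5 to 624 CPM in MatC and 22.6 to 50.2 CPM in ImC. Beyond these values, the part of cell make-up in either result was not tested.

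**Figure D2:**
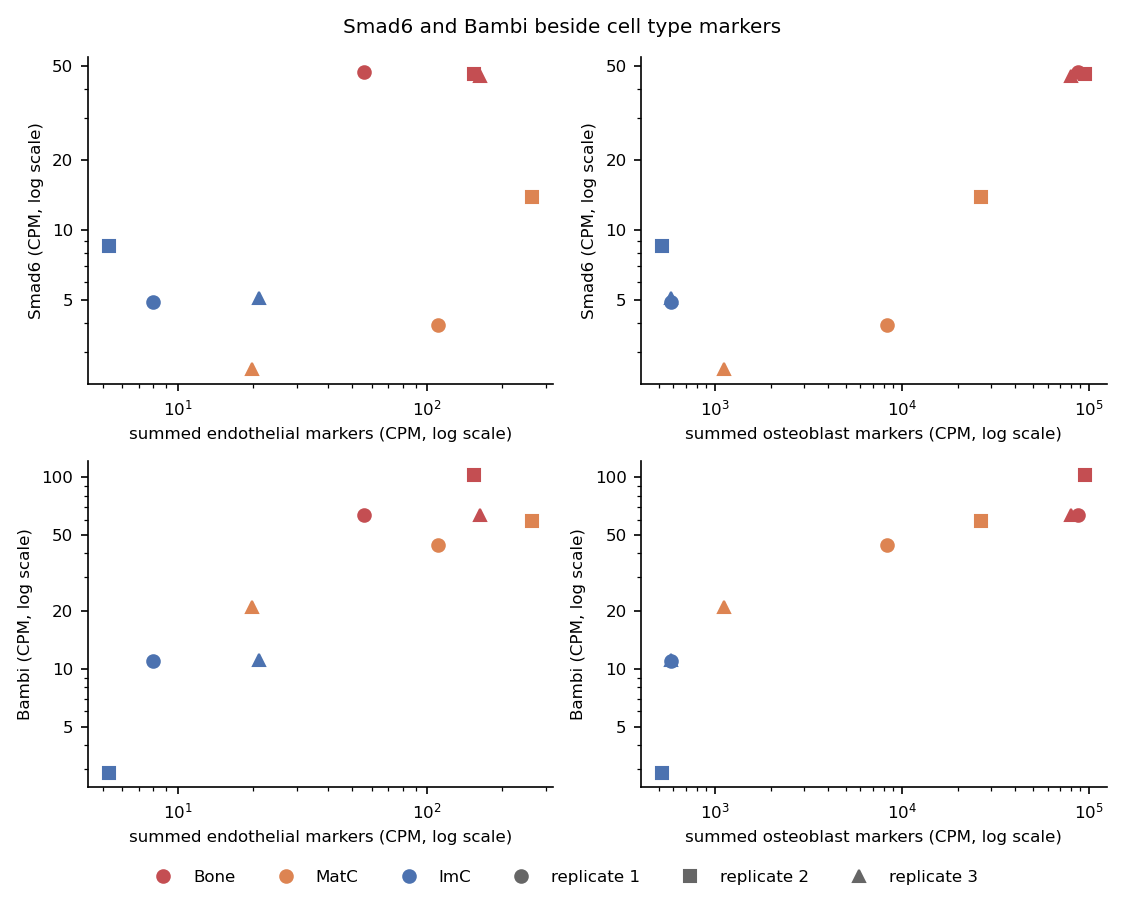
Smad6 (top) and Bambi (bottom) in CPM against the summed CPM of 10 endothelial markers (left) and 11 osteoblast markers (right), 1 point per library, both axes on log scales. Bone replicate 1 has 56.1 CPM of endothelial markers and 47.4 CPM of Smad6, while MatC replicate 2 has 264 CPM and 13.8 CPM.

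Noggin, encoded by Nog, binds BMP dimers and keeps them from their receptors, and is needed for joints and for the shape of cartilage elements. Its single-exon gene lies on chromosome 11 (89300638 to 89302332, minus strand). Nog stood at 1.57, 9.85 and 10.5 CPM in Bone, at 37.7, 12.3 and 26.6 CPM in MatC and at 24.2, 61.3 and 14.5 CPM in ImC. Every Bone library was below every cartilage library. Fitted log2 fold changes were -2.20 ± 0.74 in Bone against ImC (SE, edgeR adjusted p = 0.0456), -1.81 ± 0.73 in Bone against MatC (adjusted p = 0.176) and -0.39 ± 0.71 in MatC against ImC (adjusted p = 0.777). The call in Bone against ImC ended in 10 of the 16 alternatives, with adjusted p from 0.00444 to 0.217. They were those without any 1 Bone library, MatC replicate 2 or 3, or ImC replicate 1 or 2, with library size only, with only these groups in the fit, and with the replicate block (adjusted p = 0.0668). ImC replicate 2 held the highest level, and without it the value was -1.40.

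Fstl1, a secreted follistatin-like glycoprotein made by mesenchymal cells and reported to bind BMP4, lies on chromosome 16 (37776873 to 37836514, plus strand). It stood at 139.7, 174 and 182 CPM in Bone, at 780.4, 337 and 74.1 CPM in MatC and at 562, 1068 and 376 CPM in ImC. Bone lay below ImC without overlap, and MatC reached from below Bone into the ImC range. Fitted log2 fold changes were -2.02 ± 0.70 in Bone against ImC (SE, edgeR adjusted p = 0.0496), -1.26 ± 0.68 in Bone against MatC (adjusted p = 0.302) and -0.75 ± 0.67 in MatC against ImC (adjusted p = 0.531). Without MatC replicate 1, the highest of its tissue, they were -0.30 in Bone against MatC and -1.70 in MatC against ImC. Without MatC replicate 3, the lowest of its tissue, they were -1.73 (edgeR adjusted p = 0.106) and -0.24 in these comparisons. The Bone to ImC call, just under the threshold, ended in 9 of the 16 alternatives, with adjusted p from 0.00768 to 0.295. They were those without any 1 Bone library, MatC replicate 2, or ImC replicate 1 or 2, with DESeq2 size factors (0.05001) or library size only, and with the replicate block (0.0648).

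The chordin proteins bind BMPs through cysteine-rich repeats and release them when tolloid-type proteases cut them. Chrd (chromosome 16, 20733127 to 20742384, plus strand) had the lowest mean per kilobase of the 9 in ImC, though Grem1 was lower in replicate 1 and Fst in replicate 3. Chrd stood at 1.30, 1.11 and 1.86 CPM in Bone, at 5.53, 3.10 and 0.283 CPM in MatC and at 1.92, 3.13 and 3.28 CPM in ImC. In MatC replicate 3 it rested on 1 read. Bone lay below ImC without overlap, but the log2 fold change of -0.96 ± 0.74 was not called (SE, edgeR adjusted p = 0.351). Some 239 bases of its exons overlap Thpo on the other strand, which the library kit could not separate; Thpo had 29 reads in all. The MatC to ImC direction of Chrd, 0.16 with all libraries, turned without MatC replicate 1 and without ImC replicate 1.

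Chrdl1, a chordin-like antagonist on the X chromosome (143285674 to 143394262, minus strand), stood at 15.9, 14.7 and 20.3 CPM in Bone, at 98.5, 27.8 and 79.2 CPM in MatC and at 18.5, 56.9 and 6.48 CPM in ImC. Every MatC library was above every Bone library. The log2 fold change in Bone against MatC was -2.01 ± 0.70 and missed the threshold (SE, edgeR adjusted p = 0.119; 95% interval -3.55 to -0.47). It was called with no filter on low counts, with DESeq2, with only these groups in the fit and without ImC replicate 2 or 3, with adjusted p of 0.0172 at least and 0.373 at most. In MatC against ImC the value was 1.32 ± 0.68 (adjusted p = 0.264), and the 2 cartilage groups overlapped through ImC replicate 2. Without that library the value was 2.46 (adjusted p = 0.0541).

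Grem1, a DAN-family antagonist that shapes limb outgrowth (chromosome 2, 113746164 to 113758646, minus strand), stood at 0.650, 0.342 and 1.69 CPM in Bone, at 1.29, 2.33 and 6.51 CPM in MatC and at 0.917, 23.3 and 2.64 CPM in ImC. Of the 517 reads in ImC, 469 came from replicate 2, so that the highest library was 25.4 times the lowest. The log2 fold change in Bone against ImC was -3.29 ± 1.16 and just missed the threshold (SE, edgeR adjusted p = 0.0527); without ImC replicate 2 it was -0.96. It was called with no filter, with DESeq2 and without ImC replicate 1 or 3, and adjusted p ran from 0.00609 to 0.444. The direction of MatC against ImC, -1.50 with all libraries, turned to 0.86 without that library.

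Fst encodes follistatin, which binds activins tightly and BMPs more weakly, on chromosome 13 (114452290 to 114458951, minus strand). It stood at 0.162, 0.171 and 3.89 CPM in Bone, at 59.4, 15.6 and 1.98 CPM in MatC and at 3.08, 23.6 and 0.142 CPM in ImC. Bone replicates 1 and 2 rested on 3 and 2 reads and ImC replicate 3 on 2 reads. All 3 groups overlapped. The largest fitted difference, -4.17 ± 1.69 in Bone against MatC, was not called (SE, edgeR adjusted p = 0.176). It was called with no filter on low counts (adjusted p = 0.0124), and it was -7.20 without Bone replicate 3 and -2.65 without MatC replicate 1. Some 115 bases of the Fst exons overlap the annotated gene Gm47040 on the other strand.

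**Figure D3:**
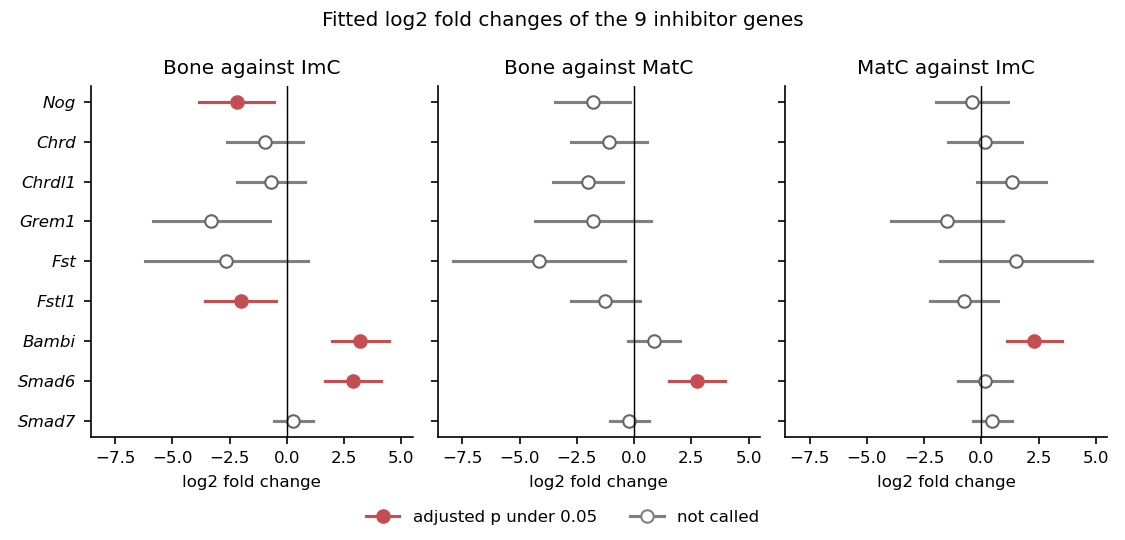
Fitted log2 fold changes (points) with 95% intervals (lines) of the 9 genes in Bone against ImC, Bone against MatC and MatC against ImC; filled red points were called at an adjusted p under 0.05. Bambi and Smad6 lie to the right in Bone against ImC, at 3.20 and 2.90, and the 6 secreted antagonists lie to the left in both comparisons with Bone, of which Nog and Fstl1 were called against ImC.

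Several secreted antagonists were high in the same libraries. ImC replicate 2 had the highest level of its tissue for Nog, Chrdl1, Grem1, Fst and Fstl1, and MatC replicate 1 for Nog, Chrd, Chrdl1, Fst and Fstl1. ImC replicate 2 also had the lowest Bambi of all libraries, 2.88 CPM. These peaks were not particular to the antagonists. Smad7 and the receptors Bmpr1a, Bmpr2 and Acvr1 were also highest of their tissue in ImC replicate 2 and MatC replicate 1, while Smad1 and Bmp1 were highest in neither. Both libraries had the lowest mitochondrial share of their tissue, 32.0% and 33.7%. Markers of perichondrium, tendon and fibroblasts summed to 1106 to 1929 CPM in Bone. They summed to 2847, 1406 and 1251 CPM in MatC replicates 1, 2 and 3 and to 690.0, 793 and 148 CPM in ImC replicates 1, 2 and 3. The joint ligand Gdf5 stood at 6.83, 29.5 and 6.69 CPM in ImC and was also highest in replicate 2. The part of these cells, or of the mitochondrial share, in the spread of the antagonists was not tested.

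Because the levels of different genes depend on transcript length, the members were set against each other as CPM per kilobase of merged exon, which takes no account of the bias toward the 3′ end that amplification can bring. Fstl1 was the most abundant member in every library except MatC replicate 3, where Nog was. Fstl1 made up 46.2%, 44.2% and 48.4% of the summed level of the 9 genes in Bone, 71.3%, 66.8% and 29.6% in MatC and 83.0%, 78.0% and 83.0% in ImC. Nog was next in ImC, at 10.4%, 12.97% and 9.25%. In Bone, Smad6 made up 24.0%, 18.1% and 18.6% and Bambi 20.4%, 25.1% and 16.3%. Smad6 took at most 4.20% in MatC and 1.74% in ImC, and Bambi at most 11.3% in MatC and 2.39% in ImC. The sum itself ran from 61.5 to 80.4 CPM per kilobase in Bone, 50.9 to 223 in MatC and 92.2 to 279 in ImC. MatC replicate 3 was the exception among cartilage libraries, with Nog at 30.8% and Chrdl1 at 23.0%.

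**Figure D4:**
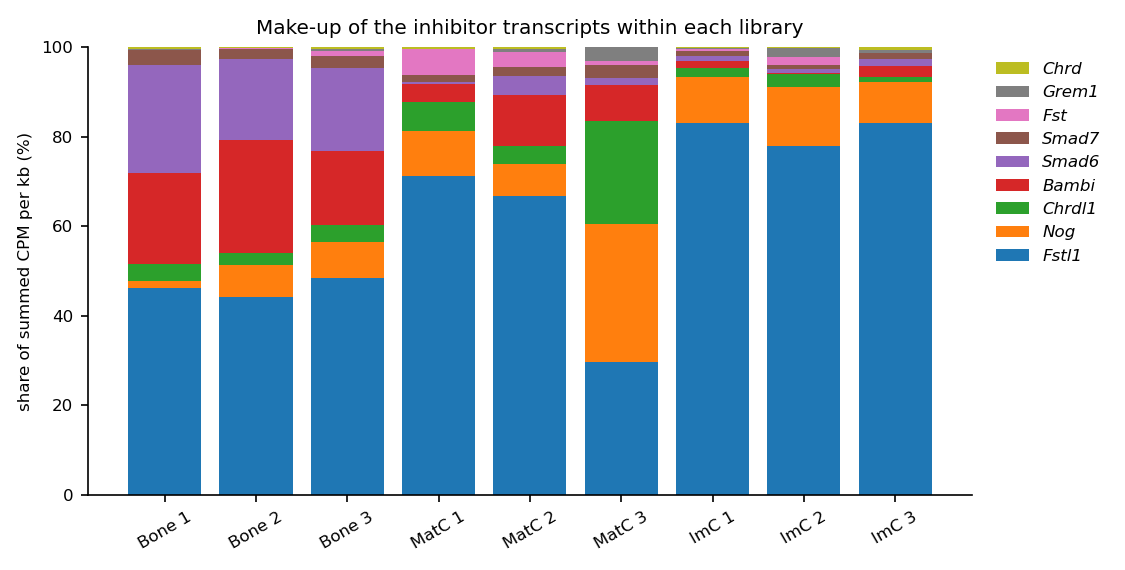
Share (%) of each inhibitor gene in the summed CPM per kilobase of the 9 genes, 1 bar per library of Bone, MatC and ImC. Fstl1 fills 78.0% to 83.0% of the ImC bars, and Smad6 and Bambi together with Fstl1 fill most of the Bone bars.

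The genes whose profile was most like that of each member were found by the root mean square difference of log2 CPM, each gene centred at its own mean over the 9 libraries, among genes with a mean of at least 5 CPM. For Smad6 they were Rassf4 (0.34), Fam109b (0.40) and 2810025M15Rik (0.42), where the median candidate differed by 1.62. Rassf4 stood at 21.5, 21.1 and 19.2 CPM in Bone, 2.20, 6.49 and 1.98 CPM in MatC and 2.58, 2.93 and 1.71 CPM in ImC. For Bambi they were Zfp810 (0.14), S1pr3 (0.28) and Gng11 (0.39), against a median of 1.64. Zfp810 stood at 12.7, 15.2 and 12.4 CPM in Bone, 7.35, 10.4 and 3.11 CPM in MatC and 1.67, 0.397 and 1.85 CPM in ImC.

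For Nog the nearest genes were Slc2a1 (0.45), a glucose transporter, Gpm6b (0.57) and Pmp22 (0.58), and for Fstl1 they were Nfia (0.28), Tpst1 (0.39) and 6330403K07Rik (0.42). For Chrdl1 they were Slc1a3 (0.38), Ugp2 (0.45) and Sema6a (0.45), and for Chrd they were Ank2 (0.40), Pgap1 (0.41) and Adam22 (0.41). Grem1 had no near neighbour, with Gpr64 at 0.77 and the glycolytic genes Pfkp and Pfkfb3 at 0.92 and 0.94. The nearest to Fst was Scx (1.16), a transcription factor of tendon, followed by Adamtsl3 (1.24) and Hs3st3b1 (1.30). Scx stood at 0.108, 0.171 and 1.91 CPM in Bone, 19.1, 5.64 and 1.41 CPM in MatC and 1.75, 15.2 and 1.57 CPM in ImC, so that its high libraries were those of Fst. For Smad7, which varied least, Ahnak and Psmg2 were among the nearest (0.12 each).

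The rest of the pathway was described by role. Over all genes tested, 14.3% were called higher and 16.8% lower in Bone against ImC. These shares were 1.36% and 4.69% in Bone against MatC and 5.41% and 2.29% in MatC against ImC. In lists this short, counts near these shares do not set a role apart. Of 19 further inhibitors and modulators tested, 5 were called higher and 2 lower in Bone against ImC, 0 and 1 in Bone against MatC and 3 and 0 in MatC against ImC. Bmp3, a BMP family member that opposes the others in bone, averaged 18.6 CPM in Bone, 9.42 in MatC and 0.378 in ImC, and rose by 5.63 ± 1.22 in Bone against ImC and 4.70 ± 1.19 in MatC against ImC on the log2 scale (SE, edgeR adjusted p = 0.00778 and 0.0407). Sost, the osteocyte-made Wnt and BMP antagonist sclerostin, had 287 reads in Bone, 124 in MatC and 1 in ImC; the Bone to ImC ratio of pooled, scaled reads was 277 (95% counting interval 49.3 to 10966) and that of MatC to ImC 185 (32.6 to 7376). Of the MatC reads of Sost, 119 were in replicate 2, and MatC replicate 3 had 0 reads of both Sost and Bmp3. Nbl1, a DAN-family antagonist, rose by 3.37 ± 0.82 in Bone against ImC and by 3.05 ± 0.81 in MatC against ImC (adjusted p = 0.0124 and 0.0484). Bmper, an extracellular BMP modulator, fell by 1.99 ± 0.55 in Bone against ImC (adjusted p = 0.0204), and Crim1, a transmembrane protein with chordin-like repeats, fell by 1.09 ± 0.35 in Bone against ImC and by 1.57 ± 0.35 in Bone against MatC (adjusted p = 0.0377 and 0.0300). Fstl3 and Chrdl2 did not pass the filter on low counts.

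Of 11 ligands tested, 6 were called higher and 3 lower in Bone against ImC, 1 and 1 in Bone against MatC and 3 and 1 in MatC against ImC. Bmp4 averaged 26.3 CPM in Bone, 5.05 in MatC and 0.976 in ImC, and was called in all 3 comparisons: the log2 fold change was 2.34 ± 0.46 in Bone against MatC and 2.41 ± 0.49 in MatC against ImC (SE, edgeR adjusted p = 0.0176 and 0.0184). Bmp8a averaged 24.1 CPM in Bone, 24.7 in MatC and 0.151 in ImC. Inhbb, an activin subunit, had 52 reads in Bone, 43 in MatC and 1 in ImC. Pooled and scaled, it was 64.2 times as high in MatC as in ImC (95% counting interval 10.9 to 2596), with 0 reads in MatC replicate 3. Bmp8b had 84 reads in Bone against 2 in ImC, a ratio of 40.5 (10.9 to 340). The joint ligand Gdf5 fell by 3.70 ± 0.73 in Bone against ImC and fell by 4.59 ± 0.81 in MatC against ImC (adjusted p = 0.00533 and 0.0119). Gdf10 fell by 4.90 ± 0.96 in Bone against ImC and by 4.47 ± 0.94 in Bone against MatC (adjusted p = 0.00511 and 0.0233). Inhba, the activin subunit whose protein follistatin binds, fell by 3.75 ± 0.87 in Bone against ImC (adjusted p = 0.0104). Of its 1207 reads in ImC, 1031 came from replicate 2.

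Of 12 receptors and co-receptors, 1 was called higher and 4 lower in Bone against ImC, 0 in either direction in Bone against MatC by edgeR's test and 0 and 1 in MatC against ImC. In Bone against MatC, 0 were higher and 2 lower at an unadjusted p under 0.05, and DESeq2 called the same numbers. The type I receptor Bmpr1b averaged 1.03 CPM in Bone and 19.4 CPM in ImC, a fall of 4.22 ± 0.87 on the log2 scale (SE, edgeR adjusted p = 0.0063). The co-receptor Rgma fell by 4.64 ± 0.56 in Bone against ImC and by 2.81 ± 0.51 in MatC against ImC (adjusted p = 0.000541 and 0.0136), and the activin type I receptor Acvr1b fell by 1.74 ± 0.46 in Bone against ImC (adjusted p = 0.0180). Acvrl1, a receptor known from endothelium, rose by 1.81 ± 0.48 in Bone against ImC (edgeR adjusted p = 0.0181). It stood at 3.63, 4.71 and 3.94 CPM in Bone replicates 1, 2 and 3. The part of endothelial cells, whose markers are given above, in this rise was not tested. Of the 6 receptor-activated and common Smads, Smad1 rose by 1.90 ± 0.26 in Bone against ImC and by 1.44 ± 0.26 in MatC against ImC (adjusted p = 0.00102 and 0.0131), and Smad9 by 2.19 ± 0.44 in Bone against ImC (adjusted p = 0.0057); no other was called by edgeR. Between Bone and MatC, 0 of the 6 were called by edgeR and 0 by DESeq2, with 2 higher at an unadjusted p under 0.05.

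Of 12 genes listed as BMP targets, 8 were called higher and 1 lower in Bone against ImC, 2 and 1 in Bone against MatC and 4 and 0 in MatC against ImC. The list holds the osteoblast factors Runx2 and Sp7, which other signals also control, so these counts are not a readout of BMP signalling alone. Dlx3 rose by 9.12 ± 0.78 in Bone against ImC, 2.22 ± 0.53 in Bone against MatC and 6.90 ± 0.73 in MatC against ImC (SE, edgeR adjusted p = 9.65e-05, 0.0382 and 0.00159). The homeobox gene Msx1 rose by 4.91 ± 0.64 in Bone against ImC and 4.80 ± 0.65 in Bone against MatC (adjusted p = 0.000808 and 0.0029). Sp7 rose by 6.89 ± 0.80 in Bone against ImC and by 5.43 ± 0.75 in MatC against ImC (adjusted p = 0.000413 and 0.0041). Hey1 rose by 6.00 ± 1.25 in MatC against ImC (adjusted p = 0.0208), at 7.504 and 18.3 CPM in MatC replicates 1 and 2 with 0 reads in replicate 3. Id4 fell by 5.35 ± 0.85 in Bone against ImC and fell by 3.15 ± 0.79 in Bone against MatC (adjusted p = 0.00197 and 0.0436). Id3, of the same family and named outside the rule after its values were seen, moved the other way: it averaged 284 CPM in Bone and 61.9 CPM in ImC, a log2 fold change of 2.20 ± 0.46 (adjusted p = 0.00672). Id1, Id2 and Atoh8, also named outside the rule, were the 3 listed targets not called in Bone against ImC. They averaged 30.2, 82.1 and 1.73 CPM in Bone and 30.8, 68.4 and 4.43 CPM in ImC.

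**Figure D5:**
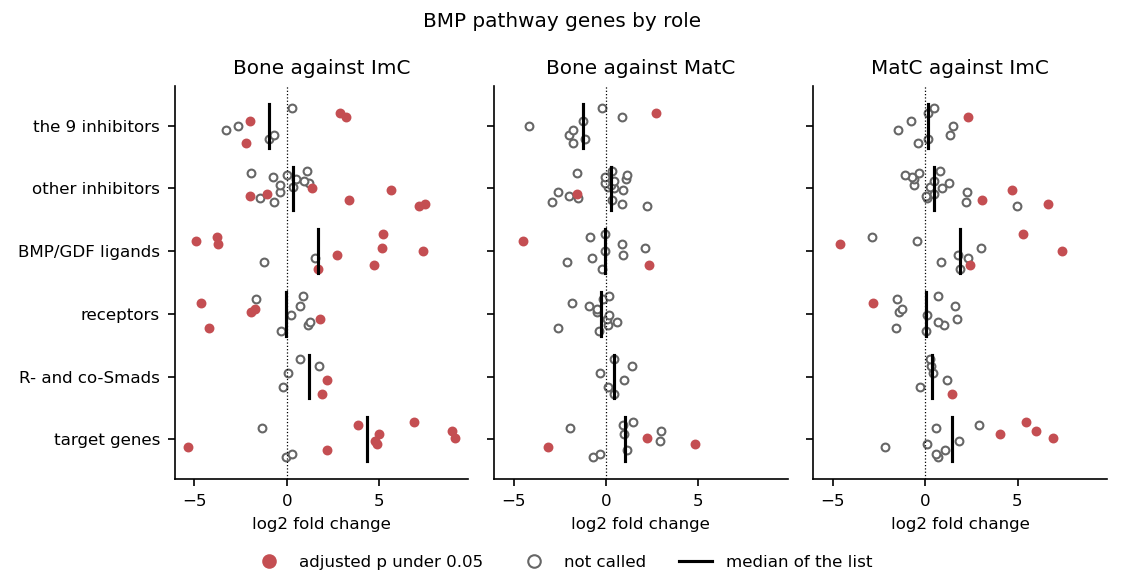
Log2 fold change of each tested gene of the pathway by role in Bone against ImC, Bone against MatC and MatC against ImC; red points were called at an adjusted p under 0.05 and black bars mark the median of a list. In Bone against ImC the median of the 9 inhibitors is -0.96 and that of the 19 other inhibitors and modulators 0.32. It is -0.05 for the receptors, 1.22 for the receptor-activated and common Smads, 1.67 for the ligands and 4.32 for the target genes.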

How the data were processed

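RNA sequencing counts from 9 mouse libraries, 3 per tissue, were analysed. Groups and replicate numbers came from the library titles. The authors deposited raw counts, whole reads per gene symbol with 0 rows that name no gene; 0 per-sample columns were left unmapped. Per the submitters' processing notes, Trimmomatic 0.30, TopHat2, Bowtie2, HTSeq and edgeR were used with mm10; how reads were assigned to genes is not given in the sources used here. A second, normalized table of the authors was not used. Per the labels' protocols, libraries were made with a TruSeq kit, which does not mark strand, after 1 round of RNA amplification.

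Genes were kept by filterByExpr (minimum count 10), scaled by TMM and fitted with edgeR 4.0.16 (R 4.3.3, glmQLFit and glmQLFTest), with 1 mean per tissue over all 9 libraries. Adjusted p is Benjamini-Hochberg over the 14257 genes tested. SE was taken as |log2 fold change| divided by √F. Profiles used log2 CPM with a prior count of 2. Alternatives were other scalings, no filter, DESeq2 1.42.0, only the groups compared, a replicate block and leaving out each library. The procedure was tested on simulated counts. Coordinates and exon lengths are from GENCODE M21 (GRCm38, the assembly of mm10) and promoters from RefSeq. Counting intervals cover counting error only, since amplified reads are not independent molecules.

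The members and lists were chosen with earlier results of these data known. All 9 members were named; of each pathway list, up to 3 called genes per direction with the smallest p in each comparison; and the 3 genes most alike per member, of which 1 is not reported here. For genes with 1 to 3 reads in a tissue, the ratio of pooled, scaled reads replaces the fitted fold change.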

Additional observations from a re-analysis of the deposited data

How the results depend on the processing

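Each comparison was recomputed under 16 alternatives. The calls of Smad6 and Bambi in Bone against ImC held in all 16; log2 fold changes ran from 2.79 to 3.34 for Smad6 and from 2.79 to 3.79 for Bambi. Precision was limited most in MatC replicate 3, where 3 reads made 0.849 CPM.

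Members called in MatC against ImC numbered 0, against 1, with library size only, with only the 2 groups compared and with the replicate block, and 0 to 1 with 1 library left out. In Bone against MatC they numbered 3 with no filter, 2 with DESeq2, 2 with only the groups compared and 0 to 2 with 1 library left out, against 1. In Bone against ImC they numbered 2 with library size only, 2 with the replicate block and 2 to 5 with 1 library left out, against 4.

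Over all genes, calls in MatC against ImC numbered 1099, and 358 with library size only, 1690 with no filter, 2229 with DESeq2, 205 with only the groups compared, 725 with the replicate block and 355 to 1240 with 1 library left out. In Bone against MatC they numbered 863, and 297, 1504 and 1964 with library size only, no filter and DESeq2, and 167 to 1702 with 1 library left out. In Bone against ImC they numbered 4432, and 2073 with library size only and 2343 to 5408 with 1 library left out. The cause of these moves was not tested.

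Library size only shifted the median log2 fold change of all genes by -0.54 in MatC against ImC, 0.98 in Bone against MatC and 0.48 in Bone against ImC. Higher calls then made up 53.4%, 40.1% and 59.0% of calls in these comparisons, against 70.2%, 22.5% and 46.0%; in Bone against MatC the share was also 34.4% with DESeq2 and 36.7% with only the groups compared. Leaving out any 1 Bone library lowered it to 8.38% to 10.5%, with 14 to 25 higher calls against 194. Relative to the shift, Smad6 stood at 2.86 in Bone against MatC and 2.86 in Bone against ImC, and Bambi at 2.55 in MatC against ImC and 3.31 in Bone against ImC.

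Directions that turned were all of values not called. In MatC against ImC, Smad6 was -0.51 with library size only, which is 0.03 relative to the shift, and -0.0295 with the replicate block. With 1 library left out it ran from -0.89 to 0.53, Nog from -0.80 to 0.40, Chrd from -0.57 to 0.66 and Grem1 from -2.30 to 0.86. In Bone against MatC, Smad7 was 0.61 with library size only, which is -0.38 relative to the shift, and ran from -0.41 to 0.12 with 1 library left out. In Bone against ImC, Chrdl1 ran from -1.15 to 0.45.

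The labels do not tell if libraries of the same replicate number belong together. Deviations of same-numbered libraries from their tissue means correlated at -0.13 to 0.24 across genes, and 3 of 9 pairs correlated best with their own number. With 3 libraries per tissue, these values cannot decide if the numbers pair the libraries. The block ended the calls of Bambi in MatC against ImC and of Nog and Fstl1 in Bone against ImC, and no other member's. Genes named beyond the 9 were not recomputed one by one.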
